A study of Mus musculus with 8 samples.

Results

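Transcript levels of 9 genes known to respond to heat or cold were compared in RNA from mouse samples labelled as tumor stroma. The genes are Cirbp, Rbm3, Hsf1, Hspa1a, Hspa1b, Hspa8, Hsp90aa1, Hsph1 and Dnajb1. They were chosen by symbol, through the Ensembl identifiers of the count table, from 55487 genes in all, and all 9 were among the 14353 genes with enough counts to test. The samples are labelled as the stromal vascular fraction, the cells that remain after sorting out GFP-labelled tumor cells, of subcutaneous MC38 tumors, a label that the transcripts described below leave in doubt. MC38 is a mouse colon cancer cell line, and by the study's design Bmal1 was deleted in the host and not in these cells. There were 4 libraries labelled Bmal1+/+ and 4 labelled Bmal1-/-, a conventional knockout of the clock activator BMAL1 in all cells of the host. No treatment separated the groups, and the sex, age and hour of collection of the animals are not given in the sources used here. By the study's methods, fresh tumors were digested with collagenase at 37 °C before cells were sorted, so cells handled this way were warm for some time before RNA was taken. The comparison asks how host loss of the clock gene changed transcripts of cells other than the tumor cells.

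Heat shock proteins are chaperones that bind unfolded proteins. HSF1 is the transcription factor that switches on their genes when proteins unfold, and it binds heat shock elements, runs of the unit NGAAN in alternating direction. CIRBP and RBM3 are RNA-binding proteins whose transcripts rise when cells are cooled mildly and fall when they are warmed. In liver and other tissues of mice, transcripts of both kinds follow the daily rhythm of body temperature, and CIRBP is known to affect the use of polyadenylation sites and the amplitude of clock gene rhythms. BMAL1, with CLOCK, binds E-boxes.

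Several facts of the libraries bear on any direction given here. Transcripts of Bmal1, listed as Arntl, went against the label: they ranged from 0.960 to 2.71 CPM (counts scaled to the size of each library) in the libraries labelled Bmal1+/+ and from 30.1 to 35.0 CPM in those labelled Bmal1-/-. Counts over a gene do not show whether a deleted exon is among them, and both groups are therefore called by their labels, which are not checked genotypes. Some other clock transcripts also separated the groups without overlap. Of those that BMAL1 is known to activate, Dbp had a log2 fold change of -4.32 in the libraries labelled Bmal1-/- and Nr1d1 -3.97. Per3 had -3.63, Nr1d2 -3.58, Per2 -1.18 and Tef -0.98 (edgeR adjusted p at most 0.000968 for all of these). A fall is the direction that loss of BMAL1 is known to give. Not all of its known targets fell. Per1 (-0.74), Hlf (-0.15) and Cry2 (0.50) did not pass, and Cry1 was higher by 2.32 (edgeR adjusted p = 6.57e-06). The clock genes Npas2, Clock and Nfil3 were also higher without overlap, by 7.81, 1.69 and 1.25 (edgeR adjusted p at most 0.000123). Npas2 had at most 0.223 CPM in libraries labelled Bmal1+/+ and at least 31.2 CPM in the others. Xist, transcribed from an inactive X chromosome, ranged from 844 to 1095 CPM in the libraries labelled Bmal1+/+ and was at most 0.749 CPM in the others, while 4 Y-linked transcripts (Ddx3y, Kdm5d, Uty and Eif2s3y) had no count in any library labelled Bmal1+/+ and at least 13.0 CPM in each of the others. Sex and genotype label therefore cannot be told apart in any comparison below. The 10 hepatocyte markers took 5.26% to 10.7% of all counts, Alb among them with a mean of 69270 CPM in libraries labelled Bmal1+/+ and 16144 CPM in the other group. The 10 fibroblast markers took 0.01049% to 0.02155%. Among them Fap had at most 7 counts in a library, whereas Dcn had 1032 to 2676 and Col3a1 133 to 501. Apob, Cps1 and Hnf4a, also hepatocyte genes, had at least 8678 counts in every library. The tissue label is therefore in doubt, and no value below can be assigned to stromal cells. Summed markers of stromal cell types were lower in every library labelled Bmal1-/- than in any labelled Bmal1+/+. Of all genes tested, 16.2% were called lower and 14.9% higher. The 10 fibroblast markers summed to 139 to 221 CPM in libraries labelled Bmal1+/+ and 105 to 110.1 CPM in the others (5 of 9 tested genes lower), and the 6 macrophage markers to 236 to 298 and 92.0 to 193 CPM (4 of 6 lower). Endothelial markers summed to 132 to 164 and 76.2 to 110.3 CPM (4 of 5 lower) and lymphocyte markers to 22.3 to 27.8 and 5.55 to 15.3 CPM (1 of 3 lower). None of these 4 lists had a gene that rose. Epithelial or tumor markers summed to 185 to 229 and 209 to 355 CPM (2 of 4 lower), with Cdx2 at 0 counts throughout. The summed hepatocyte markers were also lower without overlap, at 97892 to 110340 CPM in libraries labelled Bmal1+/+ and 52567 to 69284 CPM in the others. Of these 10 genes 2 rose and 1, Alb, fell. The part of these shifts in the results was not tested. The library labelled Bmal1-/- replicate 4, titled KO6, stood apart in acute-phase transcripts, with Saa1 at 7751 CPM against at most 80.3 CPM elsewhere. No label ties equal replicate numbers across the groups. Library totals ran from 14054825 to 18449143 counts.

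The promoters of the members show which of them carry the letters that HSF1 and BMAL1 complexes bind. A RefSeq table on GRCm38.p6 held windows for 5 of the 9 members, and the 250 bases before the annotated start were searched on both strands for heat shock elements of 2 units (GAANNTTC or TTCNNGAA) or 3 units (GAANNTTCNNGAA) and for the E-box CACGTG. The longer element contains the shorter ones. Shown 5′ to 3′ on the gene's strand are the windows of the 3 members that differed between groups and of Hspa1b as a typical heat shock gene, with matches in capitals.
Cirbp, chr10:80167589-80167838, plus strand: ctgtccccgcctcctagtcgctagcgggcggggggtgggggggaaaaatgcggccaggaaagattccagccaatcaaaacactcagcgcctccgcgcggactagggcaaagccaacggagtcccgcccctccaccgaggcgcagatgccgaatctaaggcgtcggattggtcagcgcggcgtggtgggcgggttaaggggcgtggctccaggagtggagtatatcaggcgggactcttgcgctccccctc
Hsph1, chr5:149636316-149636565, minus strand: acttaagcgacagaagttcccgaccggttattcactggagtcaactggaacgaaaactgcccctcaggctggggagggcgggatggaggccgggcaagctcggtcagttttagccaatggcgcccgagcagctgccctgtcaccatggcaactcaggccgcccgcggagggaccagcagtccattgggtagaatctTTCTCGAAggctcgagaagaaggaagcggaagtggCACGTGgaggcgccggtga
Dnajb1, chr8:83607925-83608174, plus strand: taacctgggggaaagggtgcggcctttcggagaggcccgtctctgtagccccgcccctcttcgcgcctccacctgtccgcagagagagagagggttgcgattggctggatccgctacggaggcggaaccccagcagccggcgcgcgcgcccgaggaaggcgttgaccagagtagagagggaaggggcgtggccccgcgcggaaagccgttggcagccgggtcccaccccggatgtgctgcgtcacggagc
Hspa1b, chr17:34959239-34959488, minus strand: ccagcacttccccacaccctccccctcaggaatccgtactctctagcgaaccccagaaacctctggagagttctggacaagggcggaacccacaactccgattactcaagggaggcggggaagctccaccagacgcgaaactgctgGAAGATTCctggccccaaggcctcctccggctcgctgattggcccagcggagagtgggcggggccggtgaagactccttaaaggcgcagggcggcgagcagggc
The Hsph1 window held TTCNNGAA from base -54 to base -47 and an E-box from -19 to -14, counted from the start site, and the gene's other annotated start put the same heat shock element from -33 to -26, with no E-box in that window. Hspa1b held GAANNTTC from -104 to -97. The Hspa1a window had the same match and differed from that of Hspa1b at 3 of 250 bases. Cirbp and Dnajb1 had no match to any of these letters in either of their windows, and no member had the 3-unit element. Among all 32851 windows of this length, 12.8% held a 2-unit element, 0.466% a 3-unit element and 6.02% an E-box. Matching letters do not show that a factor binds, and their absence from a short window says nothing about the factor.

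**Figure D1:**
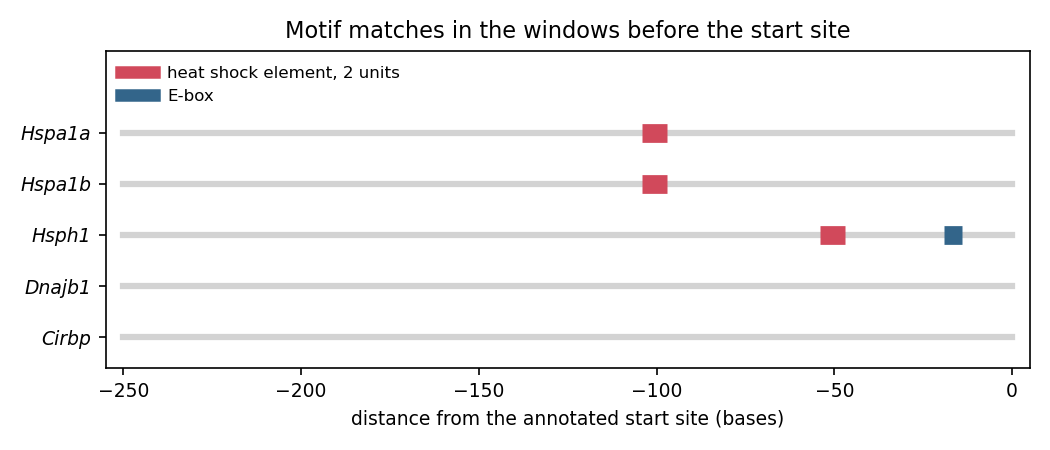
Position of motif matches in the 250 bases before the annotated start site of 5 members. Red blocks are 2-unit heat shock elements and the blue block is an E-box. The x axis is the distance from the start site in bases. Hspa1a and Hspa1b share a match from -104 to -97, Hsph1 has both motifs in the window shown, and Cirbp and Dnajb1 have none.

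Of the 9 members, 1 was higher and 2 were lower in the libraries labelled Bmal1-/- at a Benjamini-Hochberg adjusted p below 0.05 in edgeR's quasi-likelihood test. Cirbp rose about 2-fold, and the HSP110 chaperone gene Hsph1 and the HSP40 gene Dnajb1 each fell by a similar factor of about 1.6. The other 6, among them Rbm3, Hsf1 and the main HSP70 genes, did not pass. Among all genes tested, 31.1% passed, 14.9% higher and 16.2% lower, so the members' share of 33.3% was near the background and is no result about the members as a group. The study itself called genes whose log2 fold change was past 1 in size with unadjusted p under 0.05. Cirbp alone of the members met that, beside 14.1% of all genes (5.41% higher and 8.71% lower). In 4 members the values of the groups did not overlap, which held for 33.4% of all genes (16.7% higher and 16.8% lower). With this tissue, fewer cells of a type and less RNA per cell cannot be told apart.

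**Figure D2:**
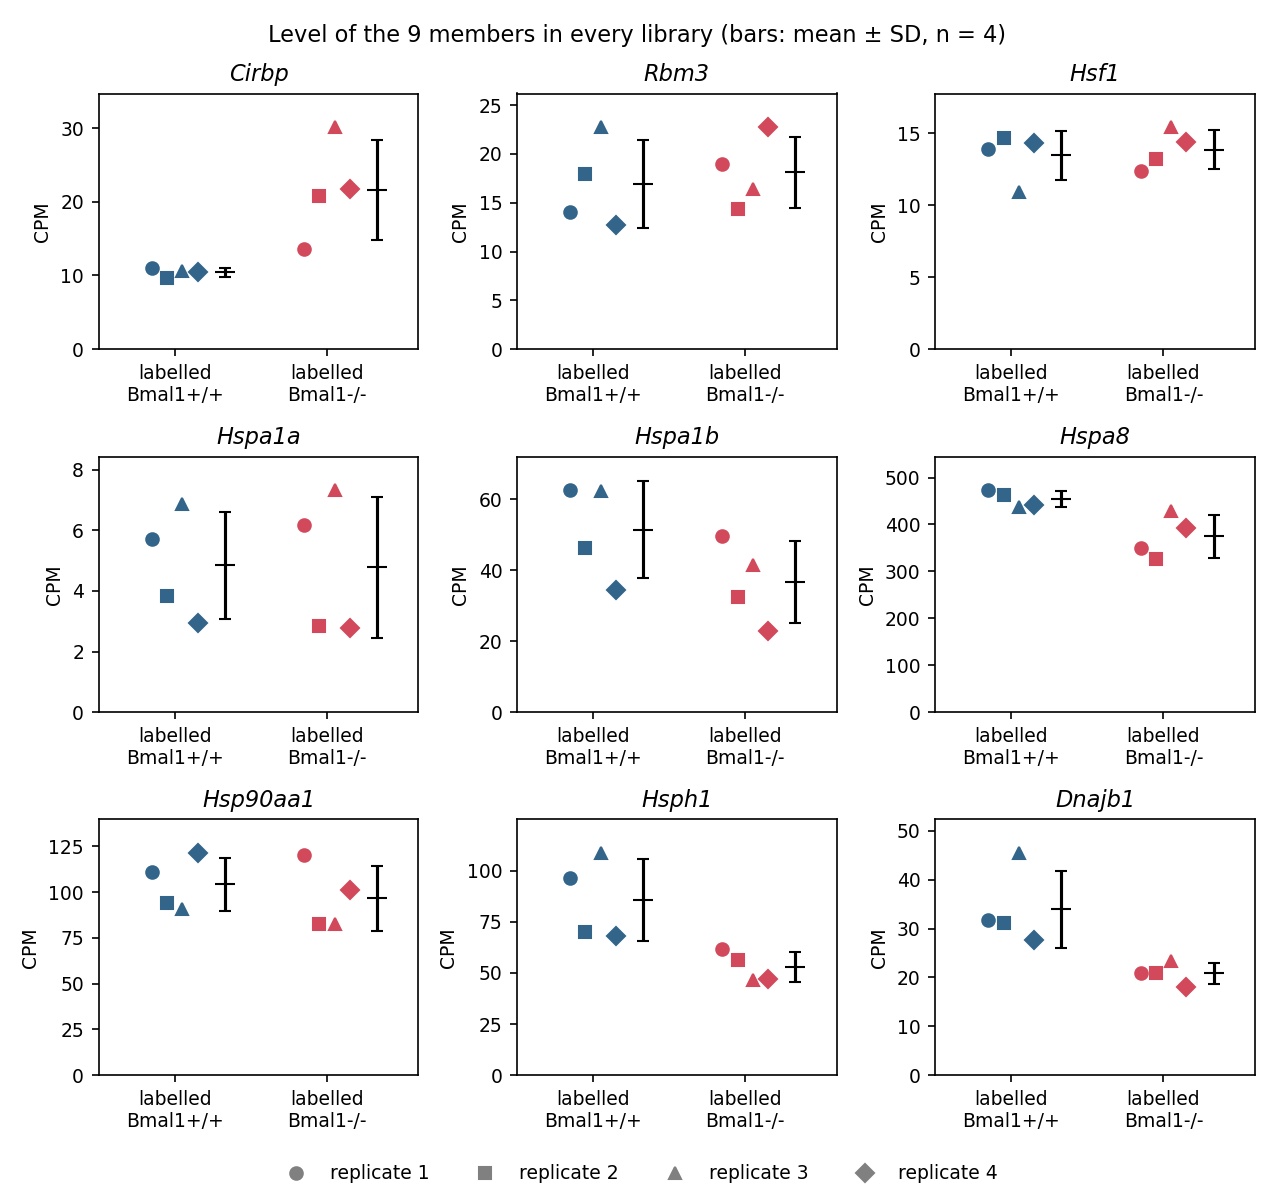
CPM of each member in the 8 libraries. Blue symbols are libraries labelled Bmal1+/+, red symbols are libraries labelled Bmal1-/-, the symbol shape gives the replicate number, and black bars are the mean ± SD of 4 libraries. Cirbp sits higher, and Hspa8, Hsph1 and Dnajb1 sit lower, in every red library than in any blue one.

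Cirbp (ENSMUSG00000045193, chr10:80165985-80172786 on the plus strand of GRCm38) encodes the cold-inducible RNA-binding protein. Its level was 10.96, 9.60, 10.6 and 10.5 CPM in replicates 1 to 4 labelled Bmal1+/+ and 13.6, 20.8, 30.2 and 21.7 CPM in replicates 1 to 4 labelled Bmal1-/-. All 4 of the latter lay above every library labelled Bmal1+/+, and they were also more scattered, with a coefficient of variation of 31.4% against 5.53%. The log2 fold change was 1.05 ± 0.21 (SE, n = 4 per group, edgeR adjusted p = 0.00456), with a 95% interval from 0.58 to 1.52, or from 1.499 to 2.86 on the fold scale. The replicate nearest to the level of the libraries labelled Bmal1+/+ was replicate 1 labelled Bmal1-/-, without which the log2 fold change was 1.22, and without replicate 3, the highest, it was 0.83. Counts were 150 to 424 per library.

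Rbm3 (ENSMUSG00000031167, chrX:8138975-8145880, minus strand) encodes the other cold-inducible RNA-binding protein. Its level was 14.1, 17.99, 22.8 and 12.8 CPM in the replicates labelled Bmal1+/+ and 18.9, 14.3, 16.4 and 22.7 CPM in those labelled Bmal1-/-. The groups overlapped throughout, with the lowest value and the highest both in libraries labelled Bmal1+/+. Rbm3 had a log2 fold change of 0.10 ± 0.20 (SE, n = 4 per group, edgeR adjusted p = 0.737), with a 95% interval from -0.36 to 0.56, which leaves out a 2-fold change in either direction. The ratio of Cirbp to Rbm3 counts was 0.466 to 0.821 in libraries labelled Bmal1+/+ and 0.719 to 1.84 in the libraries labelled Bmal1-/-. That log2 difference of 0.88 did not pass an exact two-sided permutation test (p = 0.0857, with 0.0286 the smallest possible), so the responses of Cirbp and Rbm3 were not shown to differ. Without the library labelled Bmal1-/- replicate 1 it was 1.11, with an exact permutation p of 0.0286, the smallest possible, before adjustment over the 4 ratios tested in all. Without the library labelled Bmal1-/- replicate 3 it was 0.66. Rbm3 is X-linked, and the groups differed in sex transcripts. Its antisense partner Rbm3os, which overlaps 2.0% of its exon bases, had 14 counts in all against 2159 for Rbm3.

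None of the relatives and partners of these proteins passed the test. Of 10 tested genes in this list, which holds the RBMX family, splicing factors of the SR and TRA2 kind and the polyadenylation factors CPSF6 and NUDT21, 0 were called in either direction by edgeR, 0 had an unadjusted p under 0.05, and DESeq2 and limma-voom called 0. Of all 14353 genes tested, 31.1% were called and 6077 had an unadjusted p under 0.05. The median log2 fold change was -0.03, against 0.02 over all genes tested. Tra2b, a splicing activator, had the highest value of the list, 0.18 ± 0.12 (SE, edgeR adjusted p = 0.281), and Nudt21, which sets the choice of polyadenylation site, had the lowest, -0.19 ± 0.10 (SE, edgeR adjusted p = 0.194).

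Hsf1 (ENSMUSG00000022556, chr15:76477422-76501913, plus strand), the heat shock transcription factor, had 13.9, 14.7, 10.95 and 14.3 CPM in the replicates labelled Bmal1+/+ and 12.4, 13.2, 15.4 and 14.4 CPM in those labelled Bmal1-/-. Replicate 3 gave the lowest value of the first group and the highest of the second. The difference was 0.04 ± 0.13 on the log2 scale (SE, n = 4 per group, edgeR adjusted p = 0.841), with a 95% interval from -0.25 to 0.33. HSF1 is controlled largely at the protein level, which these data do not measure. Among the other heat shock factors and their regulators, 1 of 4 tested genes was called, which is 25%, beside 31.1% of all genes. It was Hsf4, a factor known from the lens, higher by 0.83 ± 0.14 on the log2 scale (SE, edgeR adjusted p = 0.00212).

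The stress-inducible HSP70 genes Hspa1a (ENSMUSG00000091971, chr17:34969190-34972156, minus strand) and Hspa1b (ENSMUSG00000090877, chr17:34956436-34959238, minus strand) are neighbours with nearly the same sequence. Each lies in 1 exon. Of the 75-base stretches of each gene's longest coding transcript, 61.7% for Hspa1a and 55.8% for Hspa1b occur in another gene, so the split of reads between the copies is uncertain. Hspa1b took 84.9% to 92.3% of their joint counts in every library. Hspa1a had 5.72, 3.84, 6.85 and 2.95 CPM in the replicates labelled Bmal1+/+ and 6.18, 2.84, 7.33 and 2.78 CPM in those labelled Bmal1-/-, on 41 to 103 counts. The opposite-strand gene Gm20481 covers 19.0% of its bases and had 0 counts. Within each group replicates 1 and 3 were high and replicates 2 and 4 were low. Hspa1a had a log2 fold change of -0.01 ± 0.38 (SE, n = 4 per group, edgeR adjusted p = 0.983), with a 95% interval from -0.85 to 0.83. The sign turned when library size alone was used for scaling.

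Hspa1b had 62.6, 46.2, 62.3 and 34.4 CPM in the replicates labelled Bmal1+/+ and 49.7, 32.4, 41.3 and 22.9 CPM in those labelled Bmal1-/-. Replicate 4 was the lowest and replicate 1 the highest in each group, and 2 of the 4 libraries labelled Bmal1-/- lay below all of the other group. A log2 fold change of -0.49 ± 0.26 (SE, n = 4 per group) did not pass (edgeR adjusted p = 0.176, 95% interval from -1.06 to 0.08). Summed over both copies, the level was 56.2 ± 15.4 CPM in libraries labelled Bmal1+/+ and 41.4 ± 13.5 CPM in the libraries labelled Bmal1-/- (SD, n = 4), a log2 difference of -0.46 that missed the threshold in an exact two-sided permutation test over 70 splits (p = 0.229). Among the members, the within-group SD of log2 CPM was highest for Hspa1a, at 0.63, and for Hspa1b, at 0.45, against a median of 0.26 over all tested genes.

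Hspa8 (ENSMUSG00000015656, chr9:40800984-40810087, plus strand) encodes HSC70, the HSP70 that cells make without stress. It had 474, 463, 437 and 442 CPM in the replicates labelled Bmal1+/+ and 350, 326, 430 and 393 CPM in those labelled Bmal1-/-. The groups did not overlap, though replicate 3 of the second group came close to the first. On the log2 scale the fold change was -0.28 ± 0.12 (SE, n = 4 per group), which had an unadjusted p of 0.0453 and did not pass after adjustment (edgeR adjusted p = 0.1098). Without the library labelled Bmal1-/- replicate 3 it was -0.36 and passed (edgeR adjusted p = 0.0496). Of the 75-base stretches of Hspa8, 68.6% occur in another gene, mostly the annotated copy Gm15459, so its counts may hold or lose reads of such copies.

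Hsp90aa1 (ENSMUSG00000021270, chr12:110690605-110702728, minus strand), the stress-inducible HSP90, had 111, 94.3, 90.7 and 121 CPM in the replicates labelled Bmal1+/+ and 120, 82.6, 82.6 and 101 CPM in those labelled Bmal1-/-. The groups overlapped over most of their range. Hsp90aa1 had a log2 fold change of -0.11 ± 0.15 (SE, n = 4 per group, edgeR adjusted p = 0.612), with a 95% interval from -0.45 to 0.23. For this gene 53.1% of 75-base stretches occur in another gene, mainly Gm12346.

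Hsph1 (ENSMUSG00000029657, chr5:149614287-149636376, minus strand) encodes HSP110, which exchanges the nucleotide of HSP70 and helps it to dissolve aggregates. It had 96.2, 69.98, 109 and 68.1 CPM in the replicates labelled Bmal1+/+ and 61.8, 56.5, 46.6 and 47.1 CPM in those labelled Bmal1-/-. Every library of the second group lay below the first, and the libraries labelled Bmal1+/+ fell into a higher pair (replicates 1 and 3) and a lower pair. The log2 fold change was -0.69 ± 0.17 (SE, n = 4 per group, edgeR adjusted p = 0.0132), with a 95% interval from -1.08 to -0.31, and the means were 85.8 ± 19.98 and 53.0 ± 7.41 CPM (SD). No 75-base stretch of Hsph1 occurs in another gene.

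Dnajb1 (ENSMUSG00000005483, chr8:83608193-83612653, plus strand) encodes the HSP40 that delivers unfolded proteins to HSP70 and starts its ATP cycle. It had 31.8, 31.1, 45.5 and 27.6 CPM in the replicates labelled Bmal1+/+ and 21.0, 21.0, 23.4 and 18.1 CPM in those labelled Bmal1-/-. All 4 of the latter lay below all libraries labelled Bmal1+/+, and replicate 3 was highest and replicate 4 lowest in both groups. The log2 fold change was -0.70 ± 0.16 (SE, n = 4 per group, edgeR adjusted p = 0.00939), with a 95% interval from -1.06 to -0.34, and it was -0.53 without the library labelled Bmal1+/+ replicate 3. Dnajb1 shares no 75-base stretch with another gene.

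Hsph1 and Dnajb1 work with the HSP70 proteins, so their counts were set against those of the HSP70 genes in the same library. The ratio of Hsph1 to Hspa8 was 0.151 to 0.249 in libraries labelled Bmal1+/+ and 0.109 to 0.177 in the libraries labelled Bmal1-/-, a log2 difference of -0.39 (exact two-sided permutation test, p = 0.171). For Dnajb1 to Hspa8 the log2 difference was -0.40 (exact permutation p = 0.0571), and for Dnajb1 to Hspa1b it was -0.18 (exact permutation p = 0.457). None passed, and adjusted over the 4 ratios the lowest p was 0.171. The smallest p that the exact permutation test can give is 0.0286, so 1 ratio alone could not pass that adjustment. The co-chaperones were thus shown neither to fall more than the HSP70 genes nor to fall alike. These ratios were chosen after the members' values had been seen.

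**Figure D3:**
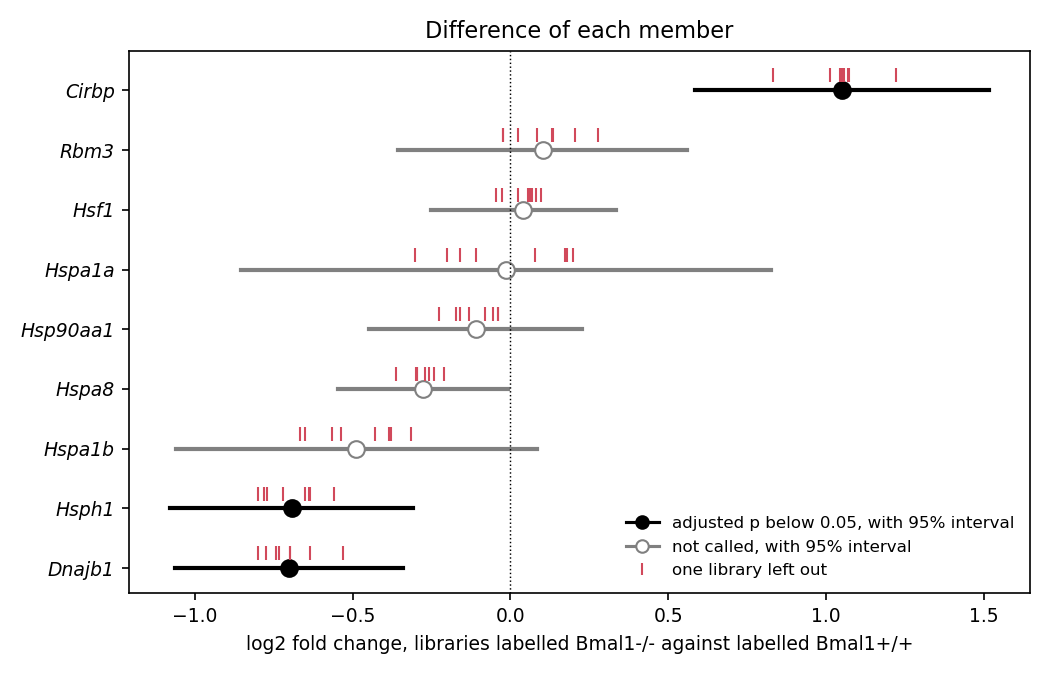
Log2 fold change of each member, libraries labelled Bmal1-/- against those labelled Bmal1+/+, on the x axis. Points with lines are estimates with 95% intervals, black where the adjusted p was below 0.05, and red ticks are the estimates with 1 library left out. Cirbp at 1.05, Hsph1 at -0.69 and Dnajb1 at -0.70 stay on their side of 0 in every tick, while those of Rbm3, Hsf1 and Hspa1a lie on both sides.

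Per length, in the deposited FPKM, the members spanned a wide range of levels. In the libraries labelled Bmal1+/+ the order of mean levels was Hspa8 (48.6 FPKM), Hspa1b (18.2), Hsp90aa1 (15.7), Dnajb1 (10.5), Hsph1 (7.54), Cirbp (2.46), Hspa1a (1.62), Rbm3 (1.54) and Hsf1 (0.841). Hspa8 stood clear of the next gene, as did Hsph1 of Cirbp and Rbm3 of Hsf1, and every other pair of neighbours overlapped in range. In the libraries labelled Bmal1-/- Hspa8 was again first at 40.8 FPKM and Hsf1 last at 0.883 FPKM. There Cirbp, at 5.18 ± 1.58 FPKM, stood above Hsph1, at 4.74 ± 0.758 FPKM (SD, n = 4), with overlapping ranges.

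**Figure D4:**
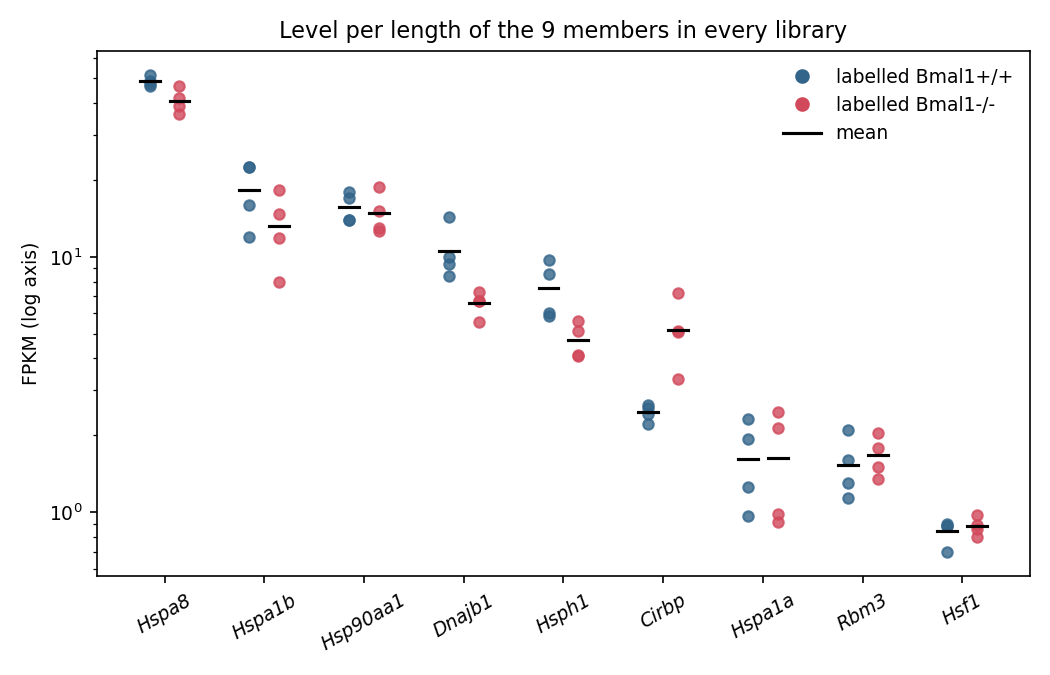
FPKM of the 9 members in every library, on a log axis, in the order of their means in the libraries labelled Bmal1+/+. Blue points are libraries labelled Bmal1+/+, red points are libraries labelled Bmal1-/- and black lines are means. Levels run from 48.6 FPKM for Hspa8 to 0.841 FPKM for Hsf1 in the libraries labelled Bmal1+/+, and Cirbp moves up from 2.46 to 5.18 FPKM.

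The genes whose profiles over the 8 libraries were most like each member were found by the root-mean-square difference of centred log2 CPM, over the 13445 tested genes whose mean reached 1 CPM. Nearest to Cirbp was Homez, at 0.17, followed by Gm7600 and the histone deacetylase gene Hdac5. Nearest to Hsph1 was P4ha1, a prolyl hydroxylase of collagen, at 0.09. Bag3, the HSP70 co-chaperone of selective autophagy and itself a heat shock gene, was second at 0.14. Nearest to Dnajb1 was the ubiquitin ligase gene Siah2, at 0.11, and to Hspa8 it was Tmem120a, at 0.04. For Hspa1b it was March5, at 0.14, and for Hspa1a it was Ndufs3, at 0.22. Zbtb48 was nearest to Rbm3 (0.12), Arhgef40 to Hsf1 (0.06) and Arhgap1 to Hsp90aa1 (0.10). No member was among the 3 nearest genes of another.

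Over 8 lists of heat shock factors, chaperones and their partners, 108 of 117 genes could be tested, of which 13 were higher and 17 lower in the libraries labelled Bmal1-/-. That is 27.8%, near the 31.1% of all genes, and so no result about the lists as a group. The median log2 fold change was 0.05, beside 0.02 over all genes. The 13 higher calls became 7 without the library labelled Bmal1-/- replicate 3, and 8 without either replicate 1 or replicate 2 labelled Bmal1+/+. In the HSP70 and HSP110 family 1 of 11 genes rose and 4 fell, which is 45.5%, although the median of the list was slightly above 0, at 0.04. Hyou1, the HSP110 of the endoplasmic reticulum, was higher by 0.90 ± 0.26 on the log2 scale (SE, edgeR adjusted p = 0.0272). Hspa4l, another HSP110 and a relative of Hsph1, fell from 40.9 ± 5.99 to 19.0 ± 1.92 CPM (SD, n = 4), a log2 fold change of -1.10. Hspa2, an HSP70 best known from the testis, had a log2 fold change of -1.40, and Hspa12a and Hspa12b had -1.15 and -1.07 on lower levels, all with edgeR adjusted p below the threshold. Hspa5 (BiP, the HSP70 of the endoplasmic reticulum), Hspa9 (its mitochondrial counterpart) and Hspa4 did not pass, with log2 fold changes of 0.38, -0.16 and 0.04.

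Of 36 HSP40 genes tested beside Dnajb1, 5 rose and 5 fell, which is 27.8%, beside 31.1% of all genes. Dnaja4 changed most among the risers, from 7.36 ± 0.590 to 23.8 ± 1.34 CPM (SD, n = 4, edgeR adjusted p = 7.36e-06), a log2 fold change of 1.69. Dnajb11, which serves BiP in the endoplasmic reticulum, and Dnajc16 rose by 0.77 and 0.66 on the log2 scale. Of those that fell, Dnajb4 had a log2 fold change of -0.94, Dnajb6, which suppresses protein aggregation, -0.86, and Dnajb9, an endoplasmic reticulum protein that binds IRE1, -0.64. Dnaja1, a main cytosolic HSP40, fell by 0.53 on the log2 scale (edgeR adjusted p = 0.00285). Dnajc12 had the highest estimate of the list at 2.02, but ranged from 4.68 to 58.1 CPM within the group labelled Bmal1-/- and did not pass (edgeR adjusted p = 0.0766). The 58.1 CPM came from replicate 4, and the rest of that group had at most 7.90 CPM, against 4.35 to 5.30 CPM in libraries labelled Bmal1+/+.

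Of 17 genes in the HSP90 list, 3 rose and 3 fell, which is 35.3%, beside 31.1% of all genes (14.9% higher and 16.2% lower). The co-chaperone gene Unc45a (0.48), Ahsa2 (0.43) and the kinase co-chaperone gene Cdc37 (0.37) were higher on the log2 scale. Fkbp5, a glucocorticoid-induced immunophilin, had -0.87, Chordc1 -0.52 and the mitochondrial import receptor gene Tomm70a -0.35. The constitutive Hsp90ab1 (log2 fold change -0.01) and the endoplasmic reticulum form Hsp90b1 (0.06) did not pass. Of 10 partners that exchange the nucleotide of HSP70 or pass its clients to degradation, 30% were called. Sil1, the exchange factor of BiP, rose by 0.53, whereas Bag2 and Bag3 had -1.27 and -0.58. Of 5 small heat shock proteins tested, 1 rose (20%), Hspb6, at 0.60. Of 16 chaperonin and prefoldin genes 2 were lower (12.5%), the prefoldin subunit gene Vbp1 at -0.58 and Hspd1, the mitochondrial HSP60, at -0.47, and none was higher.

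Of 19 other known HSF1 targets 1 was higher and 6 were lower, beside 14.9% and 16.2% of all genes, with a median log2 fold change of -0.22, and 10 of the 19 also stand in the lists above. Of the 9 that stand in no other, 1 was higher (Mrpl18, a mitochondrial ribosomal protein, 0.53) and 1 was lower (Serpinh1, the collagen chaperone HSP47, -0.86), which is 22.2%, beside 31.1% of all genes. Immediate early genes, which respond within minutes to stress and to tissue dissociation, were counted beside these because the study's methods describe a warm digestion. Of 14 tested, 5 were lower and 1 was higher, which is 42.9%, beside 31.1% of all genes. Atf3, a stress-induced repressor, had 5.91 ± 1.06 CPM in libraries labelled Bmal1+/+ and 0.906 ± 0.333 CPM in the libraries labelled Bmal1-/- (SD, n = 4), and Jun had 64.7 ± 16.8 and 30.2 ± 12.3 CPM. Ier3, Fosl2 and Jund were lower as well, and Nr4a1, a nuclear receptor, was higher by 1.61 on the log2 scale (edgeR adjusted p = 0.0383). Its ranges overlapped, at 11.5 to 21.6 CPM in libraries labelled Bmal1+/+ and 13.4 to 104 CPM in the libraries labelled Bmal1-/-. The other 8 did not pass and went both ways. Their log2 fold changes were 0.98 (Myc), 0.44 (Egr1), 0.36 (Dusp1), 0.24 (Ier2), -0.05 (Junb), -0.06 (Zfp36), -0.27 (Btg2) and -1.23 (Fos). The median of the list was -0.17. The part of the digestion in the values of Hsph1, Dnajb1 and the other heat shock genes was not tested.

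**Figure D5:**
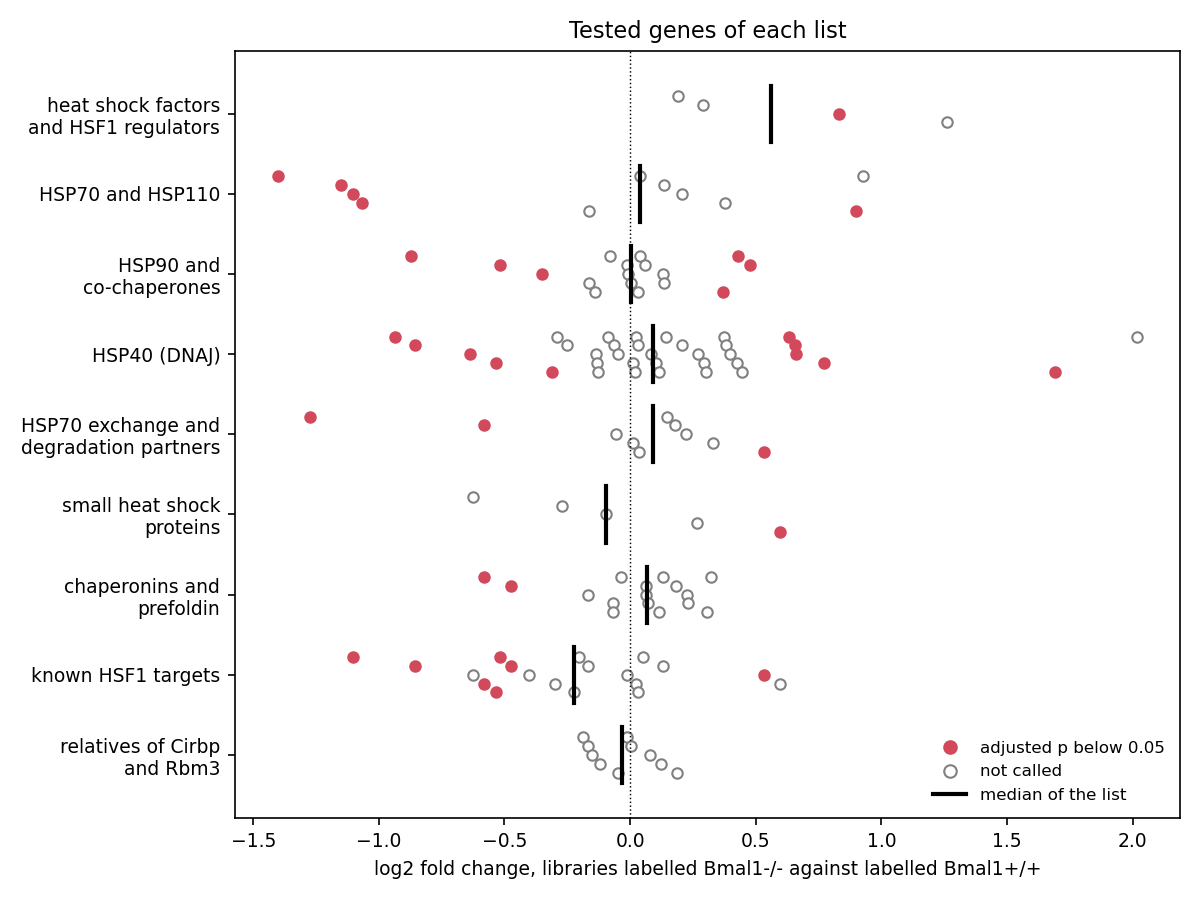
Log2 fold change of every tested gene in 8 chaperone lists and in the list of relatives of Cirbp and Rbm3, libraries labelled Bmal1-/- against those labelled Bmal1+/+. Red points passed an adjusted p below 0.05, open points did not, and the black bar is the list's median. Red points lie on both sides of 0 in the HSP70, HSP90 and HSP40 lists, and none lies in the list of relatives.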

How the data were processed

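RNA sequencing libraries of 4 samples labelled Bmal1+/+ and 4 labelled Bmal1-/- were grouped by their genotype labels. The authors aligned paired-end reads to GRCm38 with HISAT2 and counted fragments per gene with StringTie on Ensembl release 102, per the paper's methods. The submitters' processing notes instead name CASAVA 1.8 and TopHat2 2.0.6, so the aligner is uncertain. The series text speaks of arrays, but the values are sequencing counts. The deposited counts are raw whole numbers, and the deposited FPKM values are scaled by length and library total by the authors. Strand use is not given in the sources used here, so antisense reads cannot be told apart.

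From the counts, 14353 genes that passed filterByExpr were tested with edgeR 4.0.16 in R 4.3.3 (TMM factors 0.971 to 1.03, quasi-likelihood fit, prior count 0.125), with Benjamini-Hochberg adjustment over all of them. Standard errors were derived from the F statistic and the fold change. CPM are TMM-scaled. Single values were compared by exact two-sided permutation tests over libraries. Nothing says that the libraries came from separate animals beyond their sample labels, so p-values measure the spread between these samples. The fit was tested on simulated data with known changes, all larger than those of the called members, so smaller changes were not simulated. The floor of 3 counts is 0.167 to 0.213 CPM. Libraries with the same label correlated at 0.959 to 0.979 and were not duplicates.

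The members and gene lists were chosen with earlier results of these data known. Genes are named as the 9 members, Arntl, leading markers and the 3 called genes at each end of each list with a mean of at least 1 CPM. Of the 3 nearest profiles found for each member, all are named for Cirbp and Hsph1, and only the nearest for the other members. Other genes of the lists (such as Dbp, Dnaja1, Hspa5 and Dnajc12) were named for their role or after their values were seen. Loci and overlaps come from GENCODE on GRCm38, with 99.4% of identifiers matched to a symbol. The alternatives were DESeq2 1.42.0, limma 3.58.1 (voom, and log2 of the deposited FPKM plus 0.1), other scalings, filters and prior count, a replicate block, and each library left out. Plots used matplotlib 3.10.9 under Python 3.11.15.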

Additional observations from a re-analysis of the deposited data

How the results depend on the processing

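Under all 18 alternatives Cirbp (1 member called higher), Hsph1 and Dnajb1 kept their direction and their call, with highest adjusted p of 0.0166, 0.0380 and 0.0258. With 1 library left out their log2 fold changes ranged from 0.83 to 1.22, from -0.80 to -0.56 and from -0.80 to -0.53. Of the uncalled members Rbm3, Hsf1 and Hspa1a changed sign under some alternatives, and Hspa1b, Hspa8 and Hsp90aa1 did not. Rbm3 ranged from -0.023 to 0.28, Hsf1 from -0.046 to 0.097, Hspa1a from -0.30 to 0.20, Hspa1b from -0.67 to -0.32, Hspa8 from -0.36 to -0.21 and Hsp90aa1 from -0.23 to -0.04 with 1 library left out. Hspa1a was 0.0090 with library size only. The ratio of Cirbp to Rbm3 ranged from 0.66 to 1.11 on the log2 scale with 1 library left out, the highest without the library labelled Bmal1-/- replicate 1. The causes were not tested. Over all tested genes, replicate numbers were not shown to pair the libraries: deviations of same-numbered libraries correlated at -0.0642 to 0.063, and 2 of 8 libraries correlated best with their own number. Whether single genes shared an effect of the replicate number was not tested. With the replicate block Hspa1b passed at -0.51 (adjusted p = 0.0149), which made 3 members lower, and 1809 genes were called higher and 2064 lower against 2135 and 2322 without it. The summed Hspa1a and Hspa1b level kept its sign and missed the threshold in 11 alternatives (-0.65 to -0.25). Over settings 1706 to 2282 genes were called higher and 1893 to 2633 lower, and 7 to 13 and 12 to 19 genes of the chaperone lists. Hspa1a, on 41 to 103 counts, is the member most limited by depth.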
